A study of Canis lupus familiaris with 25 samples.

Results

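The retinoid binding and signaling genes are 9 of the 24532 genes in the count table, taken by name: CRABP2, STRA6, DHRS3, RDH10, ALDH1A1, ALDH1A2, ALDH1A3, RARB and RARG. All 9 were found. Their levels were measured with QuantSeq 3′, a method that sequences only transcript ends, in 25 archived canine tumor samples fixed in formalin and embedded in paraffin. They comprised 10 benign tumors of the perianal skin, hepatoid gland adenoma (HGA), 11 primary tumors of a malignant kind, apocrine gland anal sac adenocarcinoma (AGASAC), and 4 AGASAC metastases in sublumbal lymph nodes of the dogs of primary tumors 1 to 4. HGA came from 5 female and 5 male dogs of 8 to 14 years, of which 6 were intact and 4 neutered, and primary AGASAC from 5 female and 6 male dogs of 8 to 12.5 years, of which 2 were intact and 9 neutered. The metastases came from 2 female and 2 male dogs of 8 to 10 years, of which 1 was intact. Every sample is a piece of tumor tissue in which other cells than tumor cells remain.

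Retinoids are the active forms of vitamin A. Retinol enters cells partly through the receptor STRA6, is oxidized to retinal by enzymes such as RDH10 and reduced back by enzymes such as DHRS3, and retinal is oxidized irreversibly to retinoic acid by ALDH1A1, ALDH1A2 and ALDH1A3. CRABP2 carries retinoic acid to the nucleus, where receptors such as RARB and RARG switch target genes on. In skin and glandular epithelium this pathway is known for its control of differentiation and keratinization.

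Sequencing depth was 1562347 to 6389555 gene counts for HGA, with a median of 2506085, while primary AGASAC had 2581453 to 4218340 with a median of 2950459 and metastases 2857541 to 3289546. Levels are given as CPM, the usual scaled count of a gene relative to all counts of its sample, with TMM factors. Since each transcript gives 1 fragment, CPM of different genes can be set side by side without a correction for transcript length. Where a sample had 0 counts, a true level of 3 counts remains possible by counting error alone, equal to 0.543 to 1.84 CPM depending on the sample. The percentage of RNA fragments over 200 nucleotides (DV200) was 70.5 to 92.7 in HGA, 70.2 to 84.4 in primary AGASAC and 71.8 to 82.9 in the metastases.

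The tissue labels were checked against epithelial markers. Keratins of glandular epithelium with EPCAM summed to 3560 to 6220 CPM in primary AGASAC, to 3460 to 5980 CPM in the metastases and to 409 to 731 CPM in HGA. By mean level EPCAM was the most abundant of these 5 genes in HGA (502 CPM) and KRT19 in primary AGASAC (1429 CPM, beside 1407 CPM of EPCAM), and KRT8, which defines simple epithelium, had 0 counts in 9 of 10 HGA. Markers of stratified and hepatoid epithelium, led by KRT14, summed to 3100 to 12900 CPM in HGA, to 0 to 33.3 CPM in primary AGASAC and to 0.531 to 18.5 CPM in the metastases. All samples therefore carried the keratins of their labelled tumor.

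The library of HGA 10 stood apart from the other HGA. It had 0 counts of ALDH1A1 and was the lowest HGA for 9 of the 16 retinoid genes that were called higher in HGA than in primary AGASAC. How often it was the lowest HGA among all 1523 genes called higher in HGA is not given. The count therefore does not single out its retinoid genes. Its markers of stratified and hepatoid epithelium summed to 4560 CPM, within the range of the other HGA, and its markers of proliferation summed to 255 CPM, the highest among HGA. HGA 10 was also the only tumor of extraction batch 9 and the only HGA in series B of the sequencing file names. The part of these features in its retinoid levels was not tested. A log2FC without HGA 10 is given for CRABP2, ALDH1A1, CRABP1 and DHRS4. For RDH12, RDH16, SDR16C5, RDH11, ADH4 and DGAT1, where HGA 10 was the lowest HGA too, no such value is given.

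DHRS3 had the highest mean level of the 9 members in all groups, with 74.7 ± 42.8 CPM (SD, n = 10) in HGA, 76.7 ± 48.4 CPM (SD, n = 11) in primary AGASAC and 89.1 ± 50.2 CPM (SD, n = 4) in the metastases. In HGA it was followed by ALDH1A1 (60.2 ± 64.2 CPM), RARG (26.3 ± 12.2 CPM), RDH10 (5.61 ± 3.86 CPM) and CRABP2 (3.1 ± 3.31 CPM). In primary AGASAC the order was CRABP2 (24.9 ± 13.5 CPM), RARG (17.9 ± 7.83 CPM), RDH10 (6.43 ± 3.31 CPM), ALDH1A1 (6.28 ± 7.67 CPM) and STRA6 (4.81 ± 4.16 CPM). ALDH1A1 therefore had rank 2 in HGA and rank 5 in primary AGASAC, and CRABP2 the reverse. Neighbours within SD of each other were DHRS3 and ALDH1A1, ALDH1A1 and RARG, or RDH10 and CRABP2 in HGA, and CRABP2 and RARG or RDH10, ALDH1A1 and STRA6 in primary AGASAC. In the metastases the order began with CRABP2 (35.3 ± 26.3 CPM), RARG (13.3 ± 4.96 CPM), RDH10 (7.15 ± 4.38 CPM) and ALDH1A1 (5.66 ± 7.52 CPM) after DHRS3. The remaining members had mean levels of at most 2.31 CPM in HGA, 1.43 CPM in primary AGASAC and 2.89 CPM in the metastases, in many samples near or under what counting error allows at 0 counts.

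**Figure D1:**
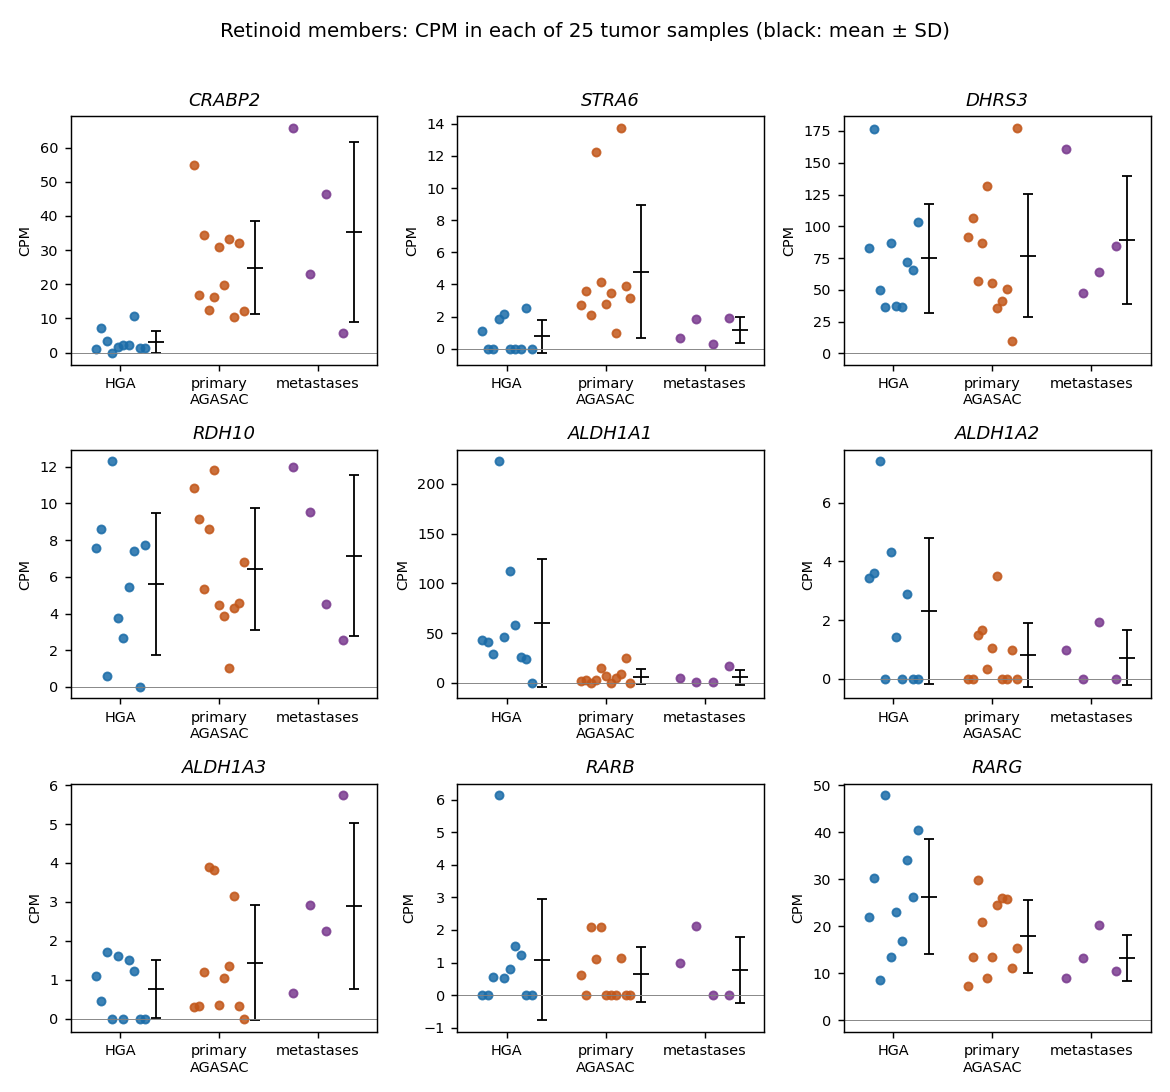
CPM (y axis, linear, own scale in each panel) of the 9 retinoid members in HGA, primary AGASAC and metastases. Each point is a tumor sample, black bars are the mean ± SD of the group; CRABP2 reached at most 10.7 CPM in HGA and at least 10.3 CPM in primary AGASAC, and ALDH1A1 was 223 CPM in HGA 4 and 0 in HGA 10.

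The comparison of HGA with primary AGASAC asked which retinoid genes separate the benign from the malignant perianal tumor. Genes that passed a filter on low counts were tested in edgeR (quasi-likelihood test, Benjamini-Yekutieli adjustment). A gene was called where its adjusted p did not exceed 0.05 and its log2FC reached 1 in either direction. Positive values mean higher levels in HGA. Of the 9 members, 5 passed the filter, namely CRABP2, DHRS3, RDH10, ALDH1A1 and RARG, and 2 of these were called, ALDH1A1 up and CRABP2 down in HGA. Of all 12070 tested genes 25.1% were called, so 2 of 5 is too few members to set apart from the background. The median size of the log2FC was 0.59 in the tested members and 0.63 in all tested genes.

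CRABP2, the carrier of retinoic acid, ranged from 0 to 10.7 CPM in HGA (median 1.87) and from 10.3 to 54.9 CPM in primary AGASAC (median 19.9). The groups overlapped only by HGA 8, the highest HGA, which lay above AGASAC primary 9, the lowest AGASAC, while HGA 4 had 0 counts. CRABP2 was 7.78-fold lower in HGA, with a log2FC of −2.96 (SE 0.48, 95% interval −3.95 to −1.97) and an adjusted p of 0.000202 in edgeR (quasi-likelihood, Benjamini-Yekutieli). Without HGA 10 the log2FC was −2.87. In bulk tissue, fewer cells of a type and less RNA per cell cannot be told apart, and the markers of glandular epithelium were lower in HGA as well, with 5 of 5 called. Their part in the lower CRABP2 was not tested.

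ALDH1A1, a cytosolic enzyme that makes retinoic acid from retinal, ranged from 0 to 223 CPM in HGA (median 41.9) and from 0 to 25.1 CPM in primary AGASAC (median 3.34). HGA 4 was the highest sample and HGA 6 the next with 113 CPM, whereas HGA 10 had no read, so the groups overlapped through HGA 10 and through HGA 9 at 23.8 CPM, below AGASAC primary 10 at 25.1 CPM. ALDH1A1 was 9.79-fold higher in HGA, with a log2FC of 3.29 (SE 0.74, 95% interval 1.76 to 4.83) and an adjusted p of 0.00808 in edgeR (quasi-likelihood, Benjamini-Yekutieli). Without HGA 10 the log2FC was 3.44 with an adjusted p of 0.00141 in edgeR. With the gonads of the dogs (intact or neutered) as a covariate the log2FC was 2.72 and the call was lost (adjusted p = 0.141 in edgeR). The markers of stratified and hepatoid epithelium were called higher in HGA in 4 of 4 tested genes, and their part in the higher ALDH1A1 was not tested.

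The RNA was extracted in 6 batches, of which 3 held at least 2 tumors of each type. Within batch 5 (3 HGA and 3 AGASAC) the log2FC was −2.36 for CRABP2 and 4.78 for ALDH1A1, within batch 6 (3 HGA and 2 AGASAC) it was −2.72 and 3.17, and within batch 8 (2 HGA and 3 AGASAC) it was −3.70 and 3.78. The direction was thus the same within each of these batches, although ALDH1A1 in batch 6 was the only call at these group sizes (adjusted p = 0.0381 in edgeR). With the batch as a covariate the log2FC was −2.90 for CRABP2 and 3.79 for ALDH1A1, and both were called. Within series A of the file names, which held 9 HGA and 3 primary AGASAC, the log2FC was −3.39 and 5.41, and both were called.

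Neither DHRS3 nor RDH10, the members of the reversible retinol step, passed the thresholds. DHRS3, which reduces retinal back to retinol, ranged from 36.3 to 177 CPM in HGA (median 68.6) and from 9.47 to 178 CPM in primary AGASAC (median 56.6). The groups overlapped almost completely, and the log2FC was −0.0041 (95% interval −0.76 to 0.75). Within batch 5, 6 and 8 it was 0.29, 0.74 and −1.55, and it was not called in any of them, so its direction was not the same between batches. RDH10, which oxidizes retinol to retinal, ranged from 0 to 12.3 CPM in HGA (median 6.43) and from 1.01 to 11.8 CPM in primary AGASAC (median 5.34), with a log2FC of −0.17 (95% interval −1.16 to 0.82). HGA 9 had no RDH10 read and HGA 4 was the highest sample, so the groups overlapped here too.

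RARG, the retinoic acid receptor known for its high level in skin epithelium, ranged from 8.56 to 48.0 CPM in HGA (median 24.7) and from 7.23 to 29.9 CPM in primary AGASAC (median 15.3). HGA 4, HGA 10, HGA 8 and HGA 2 lay above every primary AGASAC, but the remaining HGA lay among them. The log2FC was 0.59 (SE 0.30, 95% interval −0.02 to 1.2), with an unadjusted p of 0.0585 and an adjusted p of 1 in edgeR.

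The other 4 members had too few counts to pass the filter. STRA6, the receptor for retinol uptake, had 0 counts in 6 of 10 HGA and at most 2.55 CPM there (6 counts), and ranged from 1.01 to 13.8 CPM in primary AGASAC (median 3.50). AGASAC primary 9 and AGASAC primary 4 were high at 13.8 and 12.2 CPM, no other primary AGASAC exceeded 4.16 CPM, and the groups overlapped. With no filter STRA6 had a log2FC of −2.69 (SE 0.79) and an adjusted p of 0.106 in edgeR, while DESeq2 called it (log2FC −2.73, adjusted p = 0.00605). STRA6 was thus lower in HGA by both tools, and only DESeq2 called it.

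ALDH1A2, an enzyme with the same reaction as ALDH1A1, ranged from 0 to 7.42 CPM in HGA, with 0 counts in 4 of 10, and from 0 to 3.50 CPM in primary AGASAC, with 0 counts in 5 of 11. ALDH1A3, the third enzyme of this family, ranged from 0 to 1.71 CPM in HGA and from 0 to 3.89 CPM in primary AGASAC. RARB, a receptor whose own gene is a known target of retinoic acid, ranged from 0 to 6.15 CPM in HGA and from 0 to 2.08 CPM in primary AGASAC, with 0 counts in 4 of 10 and 6 of 11 samples. In all 3 genes the groups overlapped, and neither edgeR without a filter nor DESeq2 called any of them (adjusted p = 1 in both). A difference in these genes was therefore not found.

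Counts of the 3 ALDH1A enzymes were mostly of ALDH1A1 in HGA. Its share was 76.1% to 100% (median 90.9%) in the 9 HGA with a read of any of them, 0% to 100% (median 80.0%) in primary AGASAC, which had 1 to 81 such counts per sample, and 15.4% to 74.3% in the metastases. The lowest HGA, HGA 3, had 51 of 67 counts on ALDH1A1 (95% Wilson interval 64.7% to 84.7%). In the metastases the shares were 73.7% (Wilson interval 51.2% to 88.2%), 15.4% (4.33% to 42.2%), 18.8% (6.59% to 43.0%) and 74.3% (63.0% to 83.1%) in dogs 1 to 4. In the metastases of dogs 2 and 3 ALDH1A3 had more counts (11 and 7) than ALDH1A1 (2 and 3), beside 0 and 6 counts of ALDH1A2. ALDH1A3 also had more counts than ALDH1A1 in AGASAC primary 3 (4 against 1), primary 4 (14 against 12) and primary 7 (3 against 0). ALDH1A2 had 5, 6 and 10 counts in these samples, the most of the 3 enzymes in primary 3 and primary 7.

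**Figure D2:**
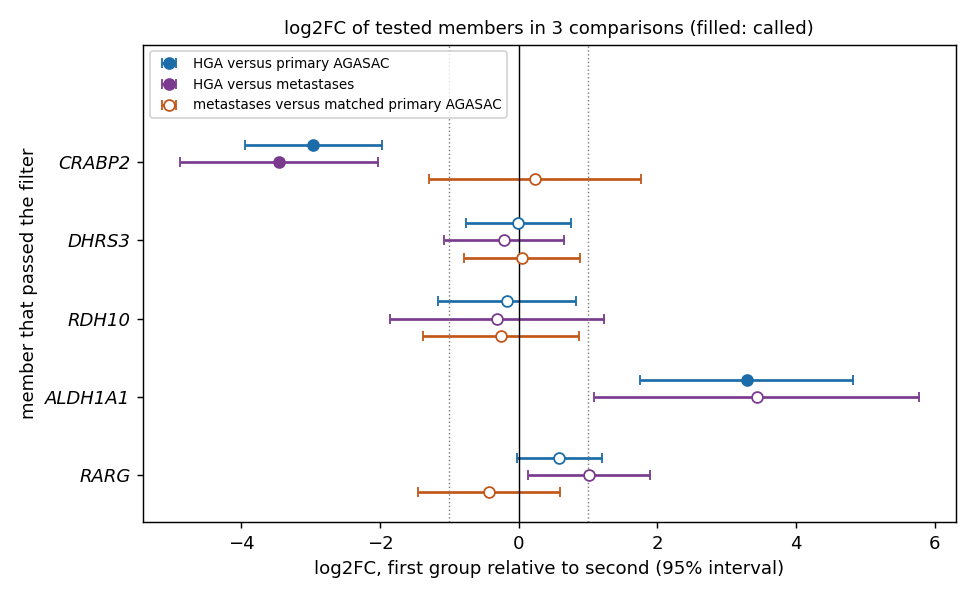
log2FC (x axis, first group relative to the second) with 95% interval of the 5 members that passed the filter in HGA versus primary AGASAC, in 3 comparisons; filled points are called, open points are not, and dotted lines mark log2FC of −1 and 1. CRABP2 lies at −2.96 and −3.46 against primary AGASAC and metastases, ALDH1A1 at 3.29 and 3.43, and ALDH1A1 did not pass the filter in metastases versus primary AGASAC.

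The comparison of HGA with the 4 metastases uses the same HGA as the first comparison, so both share these samples and are not independent. Of the 5 members tested, 1 was called, CRABP2, where 16.1% of all 13195 tested genes were called. CRABP2 was 65.9, 23.1, 46.3 and 5.75 CPM in the metastases of dogs 1 to 4. The metastases of dogs 1, 2 and 3 lay above every HGA, and that of dog 4 lay among the HGA. The log2FC was −3.46 (SE 0.68, 95% interval −4.89 to −2.03) with an adjusted p of 0.00941 in edgeR, and without the metastasis of dog 1 it was −2.99 and no longer called (adjusted p = 0.0829 in edgeR).

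ALDH1A1 was 4.54, 0.531, 0.965 and 16.6 CPM in the metastases of dogs 1 to 4. Every HGA except HGA 10 lay above all of these values. The log2FC was 3.43 (SE 1.11, 95% interval 1.1 to 5.77), which was not called (adjusted p = 0.255 in edgeR). Without the metastasis of dog 4, the highest of the 4, the log2FC was 4.94 and not called (adjusted p = 0.113 in edgeR). Without HGA 10 it was 3.59 and called (adjusted p = 0.0434 in edgeR), and DESeq2 called it with all samples (adjusted p = 0.0114).

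RARG was 9.08, 13.3, 20.3 and 10.5 CPM in the metastases, with a log2FC of 1.01 (95% interval 0.14 to 1.89) that was not called (adjusted p = 0.747 in edgeR). The metastases lay within the lower part of the HGA. DHRS3 had a log2FC of −0.21 (95% interval −1.08 to 0.65) and RDH10 of −0.31 (95% interval −1.86 to 1.23), and neither was called. The 4 members under the filter were not called without a filter or by DESeq2, and of these ALDH1A3 had 2, 11, 7 and 18 counts in the metastases.

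The metastases were also compared with the primary AGASAC of the same 4 dogs, which are among the samples of the first comparison. Of the 4 members tested (CRABP2, DHRS3, RDH10 and RARG), 0 were called by edgeR's quasi-likelihood test, where 0% of the 12629 tested genes were called. At an unadjusted p under 0.05 these counts were 0 members and 145 genes, and DESeq2 called 0 members and 5 genes. With the dog as a block 0 members and 1 gene were called.

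CRABP2 was higher in the metastasis of dogs 1, 2 and 3, by 1.2, 1.36 and 1.35 times, and lower in that of dog 4, at 0.460 times its primary tumor. The order of the dogs, with dog 1 highest and dog 4 lowest, was the same in primary tumors and metastases. The log2FC of metastases relative to primary tumors was 0.24 (95% interval −1.29 to 1.77) in a fit that leaves the pairing of the dogs aside. Omission of single samples moved it from −0.23 (without the metastasis of dog 1) to 0.72 (without the primary tumor of dog 1). Both omissions break the pair of dog 1, so these shifts follow the level of that dog as well. In this fit the log2FC has no settled direction.

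STRA6 was 0.649, 1.86, 0.322 and 1.92 CPM in the metastases of dogs 1 to 4, from 2, 7, 1 and 6 counts, and 2.71, 3.59, 2.08 and 12.2 CPM in their primary tumors, from 9, 11, 7 and 44 counts. It was lower in the metastasis of 4 of 4 dogs, and the groups did not overlap. How many of all genes had the same direction in 4 of 4 dogs, or no overlap, is not given. These features therefore do not set STRA6 apart from other genes, nor does the direction set ALDH1A3 apart below. STRA6 did not pass the filter here. In the fit with no filter, which leaves the pairing of the dogs aside, the log2FC was −2.08 (SE 0.84) with an unadjusted p of 0.0299 and an adjusted p of 1 in edgeR, so STRA6 was not called. The fit with the dog as a block has no value for STRA6, as the filter removed it.

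ALDH1A1 was 3.01, 0.180, 3.25 and 4.98 times its primary tumor in the metastases of dogs 1 to 4, from 14, 2, 3 and 52 counts against 5, 9, 1 and 12 counts, and did not pass the filter. The ratios of dogs 2 and 3 rest on 3 counts or fewer in at least 1 of the samples. ALDH1A3 was higher in the metastasis of 4 of 4 dogs, with 2, 11, 7 and 18 counts against 1, 1, 4 and 14 counts, but neither edgeR without a filter nor DESeq2 called it (adjusted p = 1 in both). DHRS3 ranged from 0.443 to 1.75 times its primary tumor and RARG from 0.506 to 1.26 times, without a common direction. RDH10 was near its primary tumor in dogs 1 to 3 (0.844 to 1.11 times) and at 0.297 times in dog 4.

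**Figure D3:**
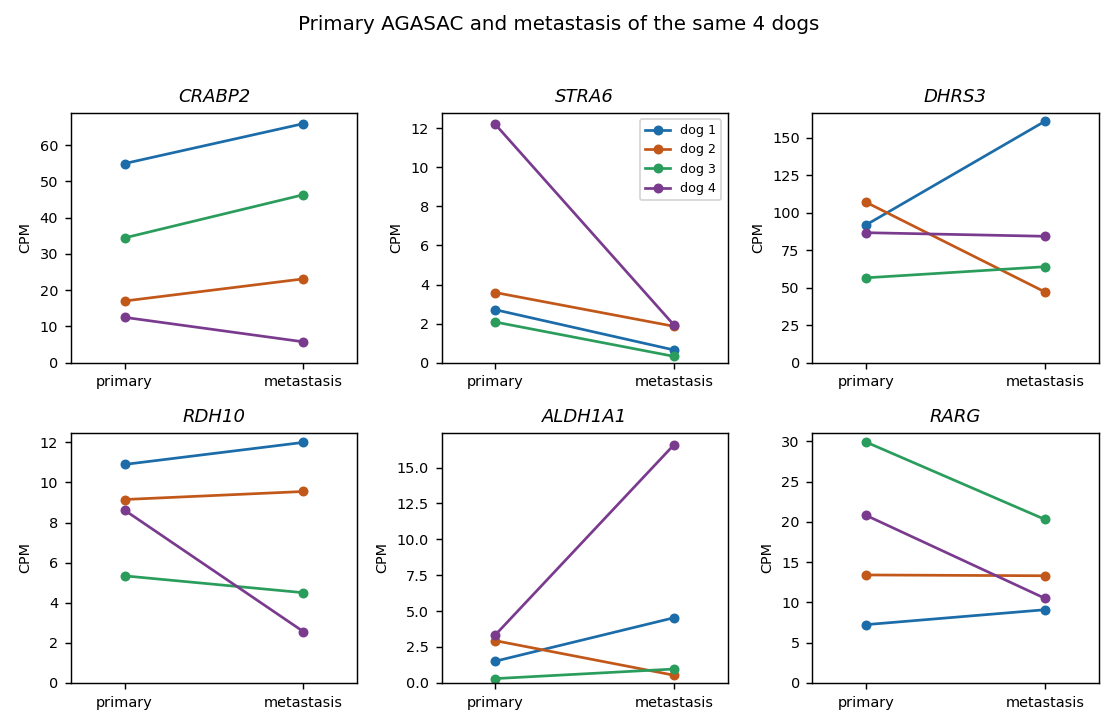
CPM (y axis, linear from 0) of 6 members in the primary AGASAC and the metastasis of the same dog, with a line for each of 4 dogs. STRA6, with at most 7 counts in the metastases, is lower in the metastasis of all 4 dogs (0.322 to 1.92 CPM against 2.08 to 12.2 CPM). The other panels hold lines in both directions.

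Of the markers of other tissue, 0 of 2 tested for skeletal muscle, 0 of 5 for T cells, 0 of 3 for B cells and 0 of 1 for lymph node stroma were called by edgeR's quasi-likelihood test between metastases and primary tumors of the same dogs. Skeletal muscle markers summed to 23.8, 406, 15.4 and 347 CPM in the primary tumors of dogs 1 to 4 and to 1.86 to 3.22 CPM in the metastases, where MYH2, CKM and TNNT3 had 0 counts in all 4, and ACTA1, their most abundant gene in the primary tumors, was 0 to 0.639 CPM against 8.01 to 249 CPM. T cell markers summed to 35.0, 41.4, 53.4 and 36.1 CPM in the metastases of dogs 1 to 4 and to 21.1, 19.0, 16.6 and 38.1 CPM in their primary tumors. They were higher in the metastasis of dogs 1, 2 and 3 and nearly equal in dog 4, and CD3E and CD3G had groups that did not overlap, while CD3D, CD2 and CD5 overlapped. Lymph node stroma markers summed to 7.79, 9.02, 14.8 and 16.0 CPM in the metastases against 4.52, 8.17, 1.48 and 6.67 CPM, higher in 4 of 4 dogs. B cell markers summed to 37.3, 21.2, 26.7 and 25.9 CPM against 39.8, 18.0, 13.6 and 14.7 CPM, higher in dogs 2, 3 and 4. The metastases lay in lymph nodes, and the paper states that tissue next to the tumors was removed. The part of any remaining node tissue and muscle in the STRA6 levels was not tested.

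Within HGA, a tumor of a gland that depends on sex hormones, 6 intact were compared with 4 neutered dogs. Of 4 members tested, 0 were called by edgeR's quasi-likelihood test, where 0% of 11906 genes were called. At an unadjusted p under 0.05 these counts were 1 member and 1167 genes, and DESeq2 called 0 members and 23 genes. DHRS3 was the member with an unadjusted p of 0.00756 (adjusted p = 1 in edgeR), at 52.0 ± 20.5 CPM (SD, n = 6) in intact and 109 ± 47.1 CPM (SD, n = 4) in neutered dogs, with a log2FC of −1.08 (95% interval −1.82 to −0.34). The intact dogs were 2 female and 4 male and the neutered dogs 3 female and 1 male, and DHRS3 in HGA had a median of 83.2 CPM in female and 37.1 CPM in male dogs. With sex as a covariate the log2FC was −0.94 (unadjusted p = 0.0201, adjusted p = 1 in edgeR). The groups overlapped, since HGA 5 of an intact dog lay above HGA 1 and HGA 8 of neutered dogs. ALDH1A1 had a log2FC of 1.59 in intact relative to neutered dogs (95% interval −0.28 to 3.45), 0.96 without HGA 4, the highest HGA, and 1.18 without HGA 10, which is of a neutered dog.

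Primary AGASAC of the 4 dogs with a sampled metastasis were compared with those of the other 7 dogs. Of 6 members tested, 0 were called by edgeR's quasi-likelihood test, where 0.00755% of 13242 genes were called, that is 1 gene, FABP2, named after its values were seen. At an unadjusted p under 0.05 these counts were 0 members and 1010 genes, and DESeq2 called 0 members and 22 genes. The log2FC of the members, with relative to without a metastasis, ran from −2.08 for ALDH1A1 (95% interval −4.51 to 0.35) to 0.68 for RDH10 (95% interval −0.43 to 1.79). In a test of the interaction of tumor type with sex of the dog 0 of 12070 genes passed in edgeR, and the 5 tested members had an unadjusted p of 0.178 or more. ALDH1A2, ALDH1A3, RARB and STRA6 were not part of this test.

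The other genes of the pathway were taken from 5 lists of 52 genes in all. Of these 44 were found by symbol, 31 passed the filter in HGA versus primary AGASAC and 19 were called, 14 up and 5 down in HGA, with a median size of the log2FC of 1.46 against 0.63 in all tested genes. Over all 12070 tested genes 25.1% were called, 12.6% up and 12.5% down in HGA. The lists were chosen with earlier results of these data known. Their shares and sizes therefore describe these genes and are no test against the background. CRABP1 was found under its LOC number 610253 and is described with the listed genes.

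Among the genes of retinoid transport and storage, 4 of 7 tested by symbol were up in HGA and 1 was down. CRABP1, the close relative of CRABP2, was up in HGA where CRABP2 was down. CRABP1 ranged from 0 to 499.5 CPM in HGA (median 171) and from 0 to 5.55 CPM in primary AGASAC (median 0.654), with HGA 10 at 0 counts and every other HGA above all AGASAC. Its log2FC was 7.31 (SE 0.85, 95% interval 5.55 to 9.07) with an adjusted p of 2.14e-06 in edgeR, and 7.46 without HGA 10. Thus the 2 carriers of retinoic acid were called in opposite directions, with 207 ± 168 CPM of CRABP1 beside 3.1 ± 3.31 CPM of CRABP2 in HGA, and 1.29 ± 1.68 CPM beside 24.9 ± 13.5 CPM in primary AGASAC.

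FABP5, a fatty acid carrier that also binds retinoic acid, was up in HGA with a log2FC of 3.34, and DGAT1, an enzyme of fat synthesis that can esterify retinol, with 1.69. AWAT2, which makes wax and retinyl esters, was 9.77 to 41.5 CPM in HGA and had 0 counts in 10 of 11 primary AGASAC and 1 count in the other, so that no fold is given. LRAT, the main enzyme that stores retinol as ester, was the gene of this list that was down in HGA, with a log2FC of −4.11 and an adjusted p of 0.0300 in edgeR. Its level in primary AGASAC ran from 0 to 490 CPM around a median of 11.6 CPM, with AGASAC primary 11 highest, and its call was lost in 16 of 30 alternatives, among them the fits without HGA 2, 3, 4, 5, 6, 7, 9 or 10.

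Of the enzymes of retinol, retinal and carotenoids, 7 of 10 tested were up in HGA and 0 down. Among all tested genes 12.6% were up and 12.5% down. The median log2FC was 3.59 in these enzymes and −0.03 in all tested genes. RDH12, a retinal reductase, was 1742 ± 1211 CPM (SD, n = 10) in HGA and 1.26 ± 2.32 CPM (SD, n = 11) in primary AGASAC, where 6 of 11 had 0 counts, with a log2FC of 10.45 that was 11.36 without AGASAC primary 6. DHRS4, which reduces retinal, was 2692 ± 1646 CPM in HGA and 22.4 ± 8.99 CPM in primary AGASAC, with a log2FC of 6.93, and was the most abundant gene of the list. HGA 10, at 3.87 CPM of DHRS4, lay below all primary AGASAC, whereas the next HGA had 367 CPM, and without HGA 10 the log2FC was 7.08.

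The other genes of this list that were up were RDH16 (log2FC 7.40), SDR16C5 (6.15), RETSAT (4.97), RDH11 (2.21) and ADH4 (1.79), of which RETSAT saturates retinol and the others oxidize or reduce retinol and retinal. RDH12, RDH16, SDR16C5 and RETSAT had groups that did not overlap. The share of all tested genes without overlap is not given. A lack of overlap, here or in other lists, therefore sets no gene apart from the background. RDH10 and DHRS3, the members of this enzyme class, were not called. RDH8, which did not pass the filter, had up to 177 counts in HGA and 0 counts in all 11 primary AGASAC.

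CYP26B1, which breaks down retinoic acid, was the only tested gene of turnover and was up in HGA (log2FC 1.88, adjusted p = 0.00510 in edgeR), at 13.6 ± 6.90 CPM (SD, n = 10) against 3.73 ± 2.97 CPM (SD, n = 11). Of the receptors and coregulators, 2 of 7 tested were up and 3 down. RXRA, the partner of the retinoic acid receptors, had a log2FC of 1.17 and its relative RXRB of −1.23, and with library size alone as scaling RXRA fell under the threshold (0.86). NRIP1, a corepressor induced by nuclear receptors, had a log2FC of 2.06, and the coactivator NCOA1 had −1.46 with groups that did not overlap.

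Of the retinoic acid responsive genes, 0 of 6 tested were up in HGA and 1 was down, MEIS1, a homeobox gene, at 3.18 ± 4.5 CPM (SD, n = 10) in HGA and 76.4 ± 18.8 CPM (SD, n = 11) in primary AGASAC, with a log2FC of −4.51 and groups that did not overlap. RARRES1, RARRES2, TGM2, NR2F1 and NR2F2 were not called. These lists describe the levels of the genes, and retinoic acid itself was not measured.

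**Figure D4:**
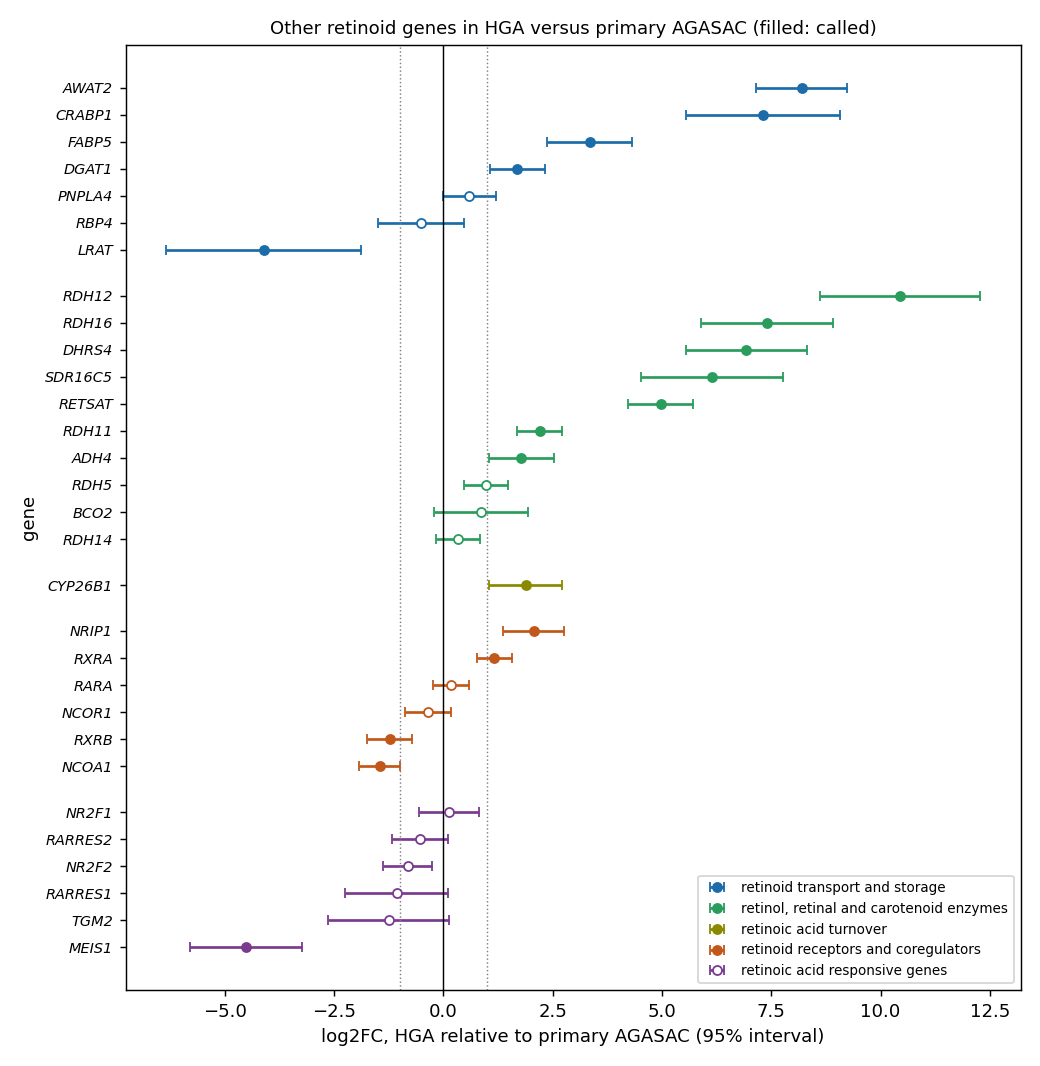
log2FC of HGA relative to primary AGASAC (x axis) with 95% interval for tested genes of 5 retinoid lists and CRABP1, colored by list, with some tested genes not shown; filled points are called and dotted lines mark −1 and 1. The enzymes of retinol and retinal lie between 0.33 and 10.45, and LRAT and MEIS1 lie at −4.11 and −4.51.

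The same lists were compared with the metastases, with HGA shared. Of all 13195 tested genes 16.1% were called, 8.4% up and 7.69% down in HGA. Transport and storage gave 4 up and 1 down of 8 tested, and the enzymes 8 up and 0 down of 12. Receptors and coregulators gave 1 up and 1 down of 8, responsive genes 0 up and 1 down of 8, and turnover 0 of 1. CRABP1 was at most 2.6 CPM in the metastases and had a log2FC of 7.26 (SE 1.43, adjusted p = 0.0100 in edgeR). Between metastases and primary tumors of the same dogs 0 genes of these lists were called, as were 0% of all tested genes.

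Markers of other cell types were compared between the tumor types as well, where 25.1% of all 12070 tested genes were called. In HGA versus primary AGASAC, 2 of 3 tested adipocyte markers were up in HGA and 1 down, CIDEC being the most abundant with a mean of 399 CPM in HGA and 0.569 CPM in primary AGASAC. FABP4 was up with groups that did not overlap (10.6 to 41.1 CPM against 0 to 4.51 CPM), ADIPOQ was down, and LEP had 0 counts in 8 of 10 HGA and 9 of 11 primary AGASAC. Skeletal muscle markers were down in 2 of 2 tested. T and B cell markers were called in 0 of 1 tested each, as 4 of 5 in each list did not pass the filter. T cell markers summed to a median of 5.79 CPM in HGA and 21.1 CPM in primary AGASAC. For B cell markers these medians were 13.2 and 18 CPM. Fibroblast markers were called in 0 of 7, smooth muscle markers in 0 of 4, and proliferation markers in 0 of 4. Of endothelium markers 1 of 4 was up (CDH5), of macrophage markers 1 of 6 down (CD14), of lymph node stroma markers 1 of 1 up (CCL21), and of cornified epidermis markers 0 of 1. The part of these cell types in the retinoid levels was not tested.

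The genes whose levels over the 25 samples were most like those of the members were named by the highest Spearman rho among 10812 genes with a symbol. They were GALNT17 (0.928) and ANPEP (0.898) for CRABP2, and S100A13 (0.877) and MEMO1 (0.854) for ALDH1A1. For DHRS3 they were VPS13D (0.714) and ALDH18A1 (0.712), for RDH10 S100A10 (0.741) and LIN52 (0.732), and for RARG VPS26B (0.798) and RAE1 (0.768). After subtraction of the group means over the 21 primary tumors, Pearson's r was 0.632 and 0.448 for the genes of CRABP2 and 0.783 and 0.653 for those of ALDH1A1. These values are descriptive over samples of different tumor types and depths, and no test was made.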

How the data were processed

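Counts of 25 samples were used. The authors trimmed reads with cutadapt, aligned them to CanFam3.1 with STAR and counted them with featureCounts, in a further round with extended 3′ ends, and deposited raw counts per gene. They describe multi-mapped reads as spread over their locations, so that close relatives may share reads, but the deposited counts are whole numbers and how they were rounded is not given. The same table holds, as signal, the deposited counts divided by a size factor, and the log2 fold changes, p-values and adjusted p-values of the authors' own comparison, none of which was used. Versions were not given in the sources used here.

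Analysis was done in R 4.3.3 with edgeR 4.0.16 (TMM, filterByExpr with minimum count 10 and total 15, quasi-likelihood test without covariate, Benjamini-Yekutieli adjustment) and DESeq2 1.42.0 as an alternative. The SE of a log2FC was computed as its size over the square root of F. CPM use TMM factors over 25 samples, and likeness was computed on log2 CPM with a pseudocount of 1. Count totals were 1562347 to 6389555 per sample, and Wilson intervals and the limits at 0 counts cover counting error only, as the reads carry no molecular identifiers used here. Scripts were checked on simulated counts. Named are the members, other listed retinoid genes that were called (not every called gene is shown), the 2 most like genes per tested member, and marker lists. The members and lists were chosen with earlier results of these data known. Of 11 listed genes not found by symbol, 1 was found by its LOC number in the RefSeq gene table of UU_Cfam_GSD_1.0, which also holds all 9 members; no coordinates or sequences are given, as the builds differ. Alternatives were other scalings, filters, tests and adjustments, covariates, batches, all 15 AGASAC, a replicate block and omission of each sample. By the labels each metastasis shares its animal with a primary tumor, and such pairs deviated together from their group means (r across genes 0.428 to 0.730 in 4 of 4 dogs). No pair of samples in a group was a duplicate (chi-square per degree of freedom at least 12.2).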

Additional observations from a re-analysis of the deposited data

Results flagged for a closer look

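Among 18 combinations of a member with a group of 4 or 10 samples, 3 had a sample whose gap to the nearest of the others was large for the group's range. For normally distributed values chance alone gives such a gap in about 1 of 20 groups, and the rate for these CPM was not measured. Primary AGASAC were left out of this check. ALDH1A1 was 223 CPM in HGA 4, with the next HGA at 113 CPM. RARB was 6.15 CPM in HGA 4 (10 counts), with the next HGA at 1.52 CPM. DHRS3 was 177 CPM in HGA 2, with the next HGA at 104 CPM. HGA 4 had the fewest detected genes (14041), and the part of depth in its values was not tested.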

How the results depend on the processing

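In HGA versus primary AGASAC, CRABP2 kept its direction in all 37 and ALDH1A1 in all 37 alternatives that gave a value, with log2FC of −3.70 to −2.36 and 2.72 to 5.41. Of 2 called members, 0 passed with at least 10 counts in every sample, where neither was tested, 0 within extraction batch 5, 1 within batch 6, 0 within batch 8 and 1 with gonads as a covariate. All called genes numbered 3032, but 1452 with at least 10 counts in every sample, where fewer genes were tested, and 262, 637 and 338 within batches 5, 6 and 8, with fewer samples. The other called retinoid genes, 20 with CRABP1, were 9 under that filter and 6, 5 and 6 within these batches. With library size alone 32.8% of the calls were up in HGA, against 50.2% with TMM, as the median log2FC of all genes moved from −0.03 to −0.33. Omission of single tumors gave 2 called members, 2828 to 3373 genes and 18 to 21 other retinoid genes. Of 741 values of these 20 genes, 670 kept call and direction, 71 lost the call and 0 reversed.

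In HGA versus metastases, 1 member was called, and omission of single samples gave 0 (without the metastasis of dog 1) to 2 (without HGA 10). DESeq2 called 2 members and 3211 genes against 2124, and omission of HGA 4 and HGA 10 together, chosen after seeing the data, gave 2 members. The omissions gave 1543 to 2588 genes. The causes were not tested. DESeq2 called 5 genes between metastases and primary tumors, 23 between intact and neutered dogs, where omissions gave 0 to 1, and 22 between primary AGASAC with and without metastasis, where edgeR called 0, 0 and 1.

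The dog as a replicate block gave 1 called gene between metastases and primary tumors instead of 0 and changed no call of a member. The labels' numbers of HGA and AGASAC name different dogs. With them as a replicate block in HGA versus primary AGASAC, 1 member was called, since ALDH1A1 (log2FC 3.44) had an adjusted p of 0.100 in edgeR.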

Other observations

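ALDH1A2 within HGA was 2.88 to 7.42 CPM in the 5 female dogs and 0 to 1.43 CPM in the 5 male dogs, of which 4 had 0 counts. In primary AGASAC it was 0 to 1.67 CPM in 5 female and 0 to 3.50 CPM in 6 male dogs. ALDH1A2 was chosen for this after its values were seen, its counts were at most 19 per sample, and the difference was not tested.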
